A study of Sus scrofa with 14 samples.

Results

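Porcine induced pluripotent stem cells (Epi-piPSC), reprogrammed with episomal plasmids, were compared between the media FL6i and FLB2i by RNA sequencing of 2 samples in each, out of 14 samples in the series. The Epi-piPSC-FL6i group held lines C10 at passage 12 and C11 at passage 11. The Epi-piPSC-FLB2i group held line B5 at passages 9 and 12, so its duplicates are 2 passages of 1 line. All of these lines came from porcine fetal fibroblasts that had been electroporated with plasmids carrying human POU5F1, SOX2, KLF4, LIN28 and L-MYC and a hairpin RNA, and all were grown on irradiated mouse embryonic fibroblasts. FL6i medium held LIF and FGF2 with 6 inhibitors, of MEK (PD0325901), p38 (BIRB796), JNK (SP600125), GSK3 (CHIR99021), BMP receptors (LDN193189) and TGFB receptors (SB431542). FLB2i medium held LIF (at a lower concentration), FGF2 and BMP4 with 2 inhibitors, of GSK3 (CHIR99021) and TGFB receptors (A83-01). The lines differ between the media, so medium and line cannot be told apart, and p-values measure only the spread between these samples.

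Members were the genes with at least 10 normalized counts (reads divided by a size factor per sample) in at least 2 of the 4 samples, which held for 14252 of the 19588 genes in the table. A symbol could be given to 11780 of them. Reads on genes numbered between 16729784 and 19456453 per sample, and mitochondrially encoded genes took 5.71% and 8.33% of the reads in FLB2i and 5.65% and 5.97% in FL6i. Of the core pluripotency genes that could be matched, LIN28A, LIN28B and TRIM71 were at 450.0 normalized counts or more in all 4 samples, whereas NANOG was at 25.9 and 36.9 in FLB2i and 0.97 and 1.00 in FL6i. POU5F1, SOX2 and SALL4 were not analysed here.

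The 2 media act on signalling pathways that hold mammalian pluripotent cells in different states. BMP4 activates receptor SMADs that switch on ID and MSX genes, and LDN193189 blocks those receptors. MEK activates ERK, whose targets include ETV factors and feedback inhibitors of the DUSP and SPRY families, and inhibition of GSK3 stabilises beta-catenin, which binds TCF and LEF factors at WNT target genes. LIF acts through JAK kinases and STAT3. Naive cells, like the epiblast before implantation, are known for ESRRB, KLF and TFCP2L1 expression, and primed cells, like the epiblast after implantation, for OTX2, DNMT3B and ZIC2.

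In limma on log2(normalized count + 1), 8697 of the 14252 genes (61.0%) passed an adjusted p (Benjamini-Hochberg) of 0.05 and are termed called, with 4334 higher (30.4%) and 4363 lower (30.6%) in FL6i. Of these, 1101 genes (7.73%) also had an absolute log2 difference of at least 3 and are termed DEGs, 460 higher (3.23%) and 641 lower (4.50%). A list with about 30.4% of its members higher and 30.6% lower is thus at the level of all genes tested. The median log2 difference (FL6i minus FLB2i, the sign used throughout) was -0.02 over all genes tested. The medians of the absolute difference were 0.66 between the groups, 0.20 between the passages of line B5 and 0.15 between lines C10 and C11. Over 1 log2 unit separated the group means of 4867 genes (34.1%), against 626 genes (4.39%) between the B5 passages and 667 (4.68%) between C10 and C11. Pearson's r over these genes was 0.985 and 0.986 within the groups and between 0.802 and 0.826 across them. With all 14 samples in 1 fit, in which the spread of the other 5 groups enters the error, 3979 genes were called, all of them among the 8697. Of the 14252 genes tested, that fit called 2014 higher and 1965 lower, which is the level to set a 14-sample count against. List counts that this fit moves by over 1.5 times are given beside the main ones below as the 14-sample count. In RNA from whole cultures, fewer cells of a type and less RNA per cell cannot be told apart.

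**Figure D1:**
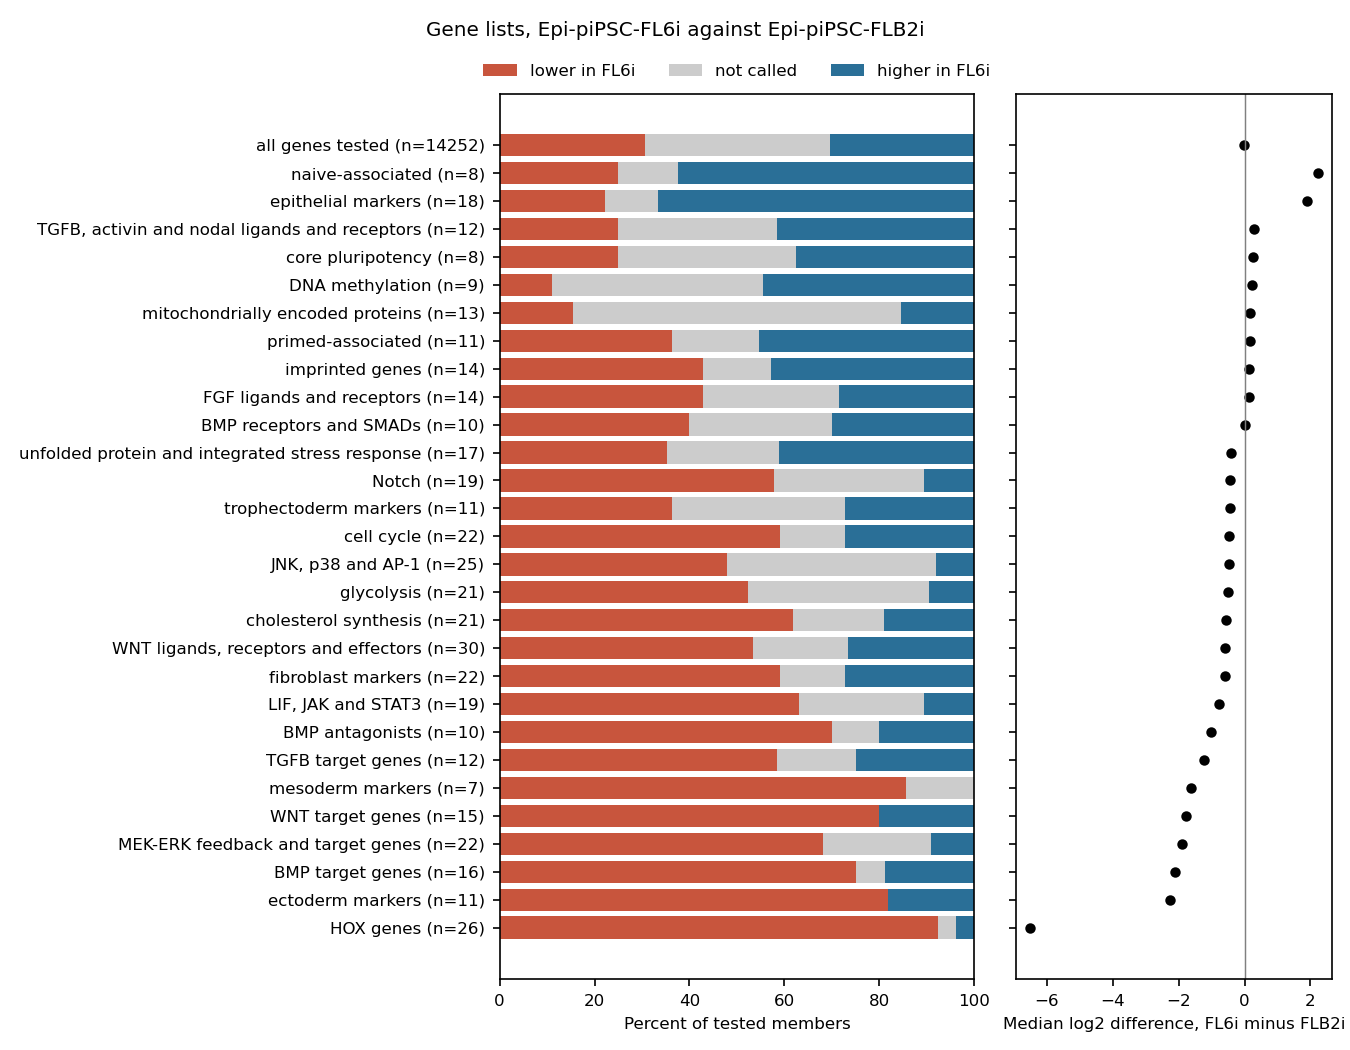
Gene lists in Epi-piPSC-FL6i against Epi-piPSC-FLB2i. Bars give the percent of tested members of each list shown that were called lower (red), not called (grey) or called higher (blue), and points give the median log2 difference (FL6i minus FLB2i), which runs from -6.51 for the HOX genes upward. The lists with the fewest tested members and the p53 target genes are not shown.

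The HOX genes, homeobox transcription factors that set positional identity along the body axis, made up the list with the lowest median log2 difference, -6.51, against -0.02 over all genes. Of 26 tested HOX genes, 24 fell in FL6i, 22 of them as DEGs, 1 rose and 1 was not called, where 30.6% of all genes tested fell. HOXA9 was at 2707 and 2415 in FLB2i and 2.90 and 3.996 in FL6i, a log2 difference of -9.18 ± 0.26 SE, adjusted p = 8.5e-07. HOXA5 was at 4033 and 3691 in FLB2i and 5.79 and 3.00 in FL6i, and HOXC4 at 3943 and 3079 in FLB2i and 1.93 and 12.99 in FL6i. For all 3 genes the FL6i samples were at the level of a few reads, far from both FLB2i samples. HOXB1, an anterior gene that retinoic acid is known to induce, was at 886 and 979 in FLB2i and 0 and 0 in FL6i, at least 296-fold lower in FL6i against a floor of 3 reads per sample.

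Members of 3 of the 4 clusters fell together. On Sscrofa11.1, the 7 tested HOXA genes (chromosome 18, 45393525 to 45480306) all fell and no FL6i sample exceeded 6.99 normalized counts for any of them. The 8 HOXB genes (chromosome 12, 24784953 to 24879706 for the 7 that could be placed) all fell, with FL6i values up to 5.99, and the 6 HOXC genes (chromosome 5, 19197810 to 19268267) all fell, with FL6i values up to 17.4. In FLB2i the lowest value of any sample was 151 in HOXA, 146 in HOXB and 185 in HOXC. The HOXD cluster (chromosome 15, 81910415 to 81990026 for the 4 of 5 that could be placed) differed, with a median log2 difference of -1.05.

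Within HOXD, HOXD1 had a log2 difference of -4.89 ± 0.71 SE, adjusted p = 0.00063. HOXD3 and HOXD4 kept part of their level, with HOXD3 at 1114 and 1003 in FLB2i and 514 and 456 in FL6i. HOXD9 was not called, at 29.0 and 25.8 in FLB2i and 19.3 and 18.0 in FL6i, and HOXD8 rose, at 67.3 and 127 in FLB2i and 444 and 438 in FL6i (2.24 ± 0.30 SE, adjusted p = 0.00037). So HOXD8 was the single HOX gene above its FLB2i range in both FL6i samples. With any 1 of the 4 samples left out, the median log2 difference of the HOX genes ran from -6.55 to -6.39. In the fit of all 14 samples, 22 of them were called lower and 1 higher, and the calls of HOXD3 and HOXD4 were lost. HOX genes overlap antisense transcripts, and how strand entered the authors' counting is not given beyond the tool's default, so reads of the partners cannot be told apart.

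**Figure D2:**
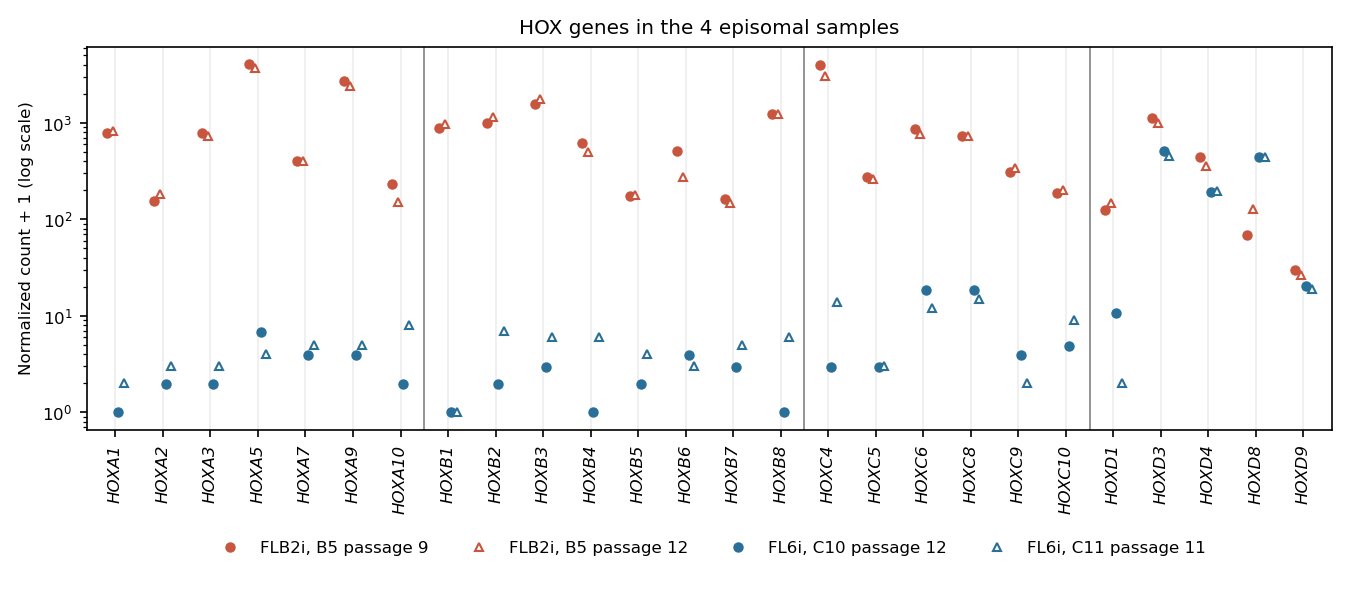
Normalized count + 1 (log axis) of the 26 tested HOX genes in the 4 episomal samples, ordered by cluster. Each sample is a point; the FL6i points lie far below the FLB2i points in HOXA, HOXB and HOXC, while HOXD3, HOXD4, HOXD8 and HOXD9 stay within reach of them or above.

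BMP signalling differs by design, with BMP4 in FLB2i and a BMP receptor inhibitor in FL6i. Of 16 tested BMP target genes, 12 fell, 6 of them as DEGs, 3 rose and 1 was not called, with a median log2 difference of -2.10. The ID genes encode inhibitors of basic helix-loop-helix factors and are the classic direct BMP targets. ID1 was at 1257 and 1435 in FLB2i and 268 and 216 in FL6i (-2.48 ± 0.15 SE, adjusted p = 1.2e-05). ID3 was at 2098 and 2373 in FLB2i and 557 and 423 in FL6i, and ID4, at 771 and 1027 in FLB2i and 98.5 and 61.9 in FL6i, fell the most of the 4 ID genes with a log2 difference of -3.49, while ID2 had -1.68. The values of the duplicates lay close together. The groups did not overlap for any ID gene, as for each of the 8697 called genes and for 11766 of the 14252 tested.

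The homeobox targets behaved alike. MSX1 was at 1793 and 1973 in FLB2i and 166 and 139 in FL6i (-3.62 ± 0.14 SE, adjusted p = 2.2e-06), MSX2 had a log2 difference of -4.41 ± 0.32 SE, adjusted p = 2.2e-05, and DLX5, with no read in either FL6i sample, was at least 9.67-fold lower. Of the intracellular SMAD inhibitors, SMAD7 fell, with a log2 difference of -1.998 ± 0.34 SE, adjusted p = 0.0013, and SMAD6 rose, at 59.0 and 76.5 in FLB2i and 399.7 and 479 in FL6i (2.69 ± 0.23 SE, adjusted p = 4.4e-05). BAMBI, a decoy receptor, rose as well, with 1.58 ± 0.23 SE, adjusted p = 0.00063. GATA2, the other member called higher, was at 88.0 and 64.6 in FLB2i and 201 and 143 in FL6i (1.16 ± 0.29 SE, adjusted p = 0.0088), and its call was lost without FL6i replicate 1, without FLB2i replicate 2 and in the fit of all 14 samples.

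Of 5 tested BMP ligands, 2 fell, 2 rose and 1 was not called. These counts, and those of the receptors and SMADs below, stand against 30.6% of all genes tested lower and 30.4% higher. BMP4 itself was at 611 and 590.2 in FLB2i and 119.7 and 73.9 in FL6i (-2.66 ± 0.25 SE, adjusted p = 6.3e-05), and BMP5 had no read in FL6i against 267 and 359 in FLB2i, at least 89.1-fold lower. BMP6, at 0 and 3.69 in FLB2i and 14.5 and 24.0 in FL6i (3.18 ± 0.76 SE, adjusted p = 0.0074), and BMP2, at 58.0 and 34.1 in FLB2i and 85.0 and 146 in FL6i (1.30 ± 0.39 SE, adjusted p = 0.019), were called higher. Neither call was made without FL6i replicate 2 or in the fit of all 14 samples, and that of BMP2 was also lost without either FLB2i replicate. Of 10 receptors and SMADs, 3 rose (1 without FL6i replicate 2), 4 fell (2 without FL6i replicate 1, 14-sample count 2) and 3 were not called, with a median of 0.01. The receptor ACVR1 rose (1.49 ± 0.10 SE, adjusted p = 1.9e-05), and SMAD9 fell (-3.66 ± 0.23 SE, adjusted p = 1.2e-05), whereas the receptors BMPR1A (1018 and 1166 in FLB2i and 1005 and 1015 in FL6i, log2 difference -0.11) and BMPR2 (1444 and 1181 in FLB2i and 1369 and 1499 in FL6i, log2 difference 0.13) were not called. Of 10 secreted BMP antagonists, 7 fell (14-sample count 3), 2 rose (14-sample count 1) and 1 was not called. NOG was at 71.4 and 82.1 in FLB2i and 7.72 and 1.00 in FL6i (-4.22 ± 0.67 SE, adjusted p = 0.00096), and GREM1 at 6219.8 and 5289.5 in FLB2i and 959 and 691 in FL6i (-2.82 ± 0.16 SE, adjusted p = 8.1e-06). NBL1 went the other way, at 64.2 and 88.5 in FLB2i and 1064 and 1214 in FL6i (3.90 ± 0.20 SE, adjusted p = 5.4e-06). The calls of SMAD7 and GREM1 were not made in the fit of all 14 samples.

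MEK inhibitor was present in FL6i only. Of 22 tested MEK-ERK feedback and target genes, 15 fell (14-sample count 9), 2 rose and 5 were not called, with a median log2 difference of -1.91. The immediate early factor EGR1 was at 339 and 139 in FLB2i and 1.93 and 4.99 in FL6i (-5.70 ± 0.54 SE, adjusted p = 7.4e-05). DUSP6, the phosphatase that turns off ERK, was at 1105 and 1078 in FLB2i and 138 and 249.7 in FL6i (-2.55 ± 0.25 SE, adjusted p = 8.9e-05), and the Sprouty gene SPRY1 at 312 and 333 in FLB2i and 26.1 and 7.99 in FL6i. The ETS factors ETV4 and ETV5 had log2 differences of -2.52 and -2.14, and the ephrin receptor EPHA2 had -4.29 ± 0.18 SE, adjusted p = 2.7e-06. For each of these the higher FL6i sample was below the lower FLB2i sample, as for every gene called lower.

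Family members did not move together. SPRY2 (357 and 329 in FLB2i and 366 and 506 in FL6i, log2 difference 0.33) and the 3 tested SPRED genes were not called, with log2 differences from -0.13 to 0.21 for SPRED. MYC, which ERK is known to induce and stabilise, rose, at 29.0 and 37.8 in FLB2i and 287 and 382 in FL6i (3.28 ± 0.28 SE, adjusted p = 4.2e-05). EPHA4 was the other gene to rise (1.76 ± 0.10 SE, adjusted p = 8.8e-06). With all 14 samples in 1 fit, the call of ETV5 was lost.

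JNK and p38 were also inhibited in FL6i only. Of 25 tested genes of these kinases and of AP-1, 12 fell (7 without FL6i replicate 1 or without FL6i replicate 2, 14-sample count 3), 2 rose (0 without FL6i replicate 1, 1 without FL6i replicate 2, 14-sample count 1) and 11 were not called, with a median of -0.47. The largest differences were in 2 p38 isoforms, MAPK11 at 144 and 166 in FLB2i and 4.83 and 3.996 in FL6i (-4.85 ± 0.36 SE, adjusted p = 2.5e-05) and MAPK12 (-3.01 ± 0.24 SE, adjusted p = 3e-05), and in MAPK10, the JNK isoform known from neurons (-2.29 ± 0.36 SE, adjusted p = 0.00092). The widely expressed isoforms MAPK14 (1376 and 1423 in FLB2i and 1282 and 1239 in FL6i, log2 difference -0.15) and MAPK8 (842 and 1129.7 in FLB2i and 1243 and 1196 in FL6i, log2 difference 0.32) were not called. JUN was at 1592 and 1030.0 in FLB2i and 591 and 511 in FL6i (-1.22 ± 0.20 SE, adjusted p = 0.0011) and FOS at 388 and 215 in FLB2i and 37.7 and 64.9 in FL6i (-2.52 ± 0.37 SE, adjusted p = 0.00064). The calls of JUN and FOS were not made in the fit of all 14 samples.

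The GSK3 inhibitor CHIR99021 was in both media. All 15 tested WNT target genes were called, 12 lower (14-sample count 7) and 3 higher (1 without FLB2i replicate 1 or without FLB2i replicate 2, 14-sample count 1), with a median log2 difference of -1.77. AXIN2, a negative regulator used as the standard readout of beta-catenin activity, was at 2269.6 and 1999 in FLB2i and 706 and 548 in FL6i (-1.77 ± 0.14 SE, adjusted p = 3.2e-05). LEF1, itself a partner of beta-catenin, was at 745 and 776 in FLB2i and 19.3 and 12.99 in FL6i (-5.50 ± 0.27 SE, adjusted p = 4.4e-06), and NKD1, an inhibitor of the pathway, at 412 and 682 in FLB2i and 97.5 and 43.0 in FL6i (-3.01 ± 0.40 SE, adjusted p = 0.00037). In AXIN2 and LEF1 the duplicates were close beside the gap between the media, while those of NKD1 lay further apart. RNF43 (-3.36 ± 0.23 SE, adjusted p = 1.8e-05) and NOTUM (-3.34 ± 0.37 SE, adjusted p = 0.00016), 2 further feedback inhibitors, also fell.

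Promoter sequences of 4 called genes are printed because each holds a match to the binding motif of the factor that ends its pathway, within the 250 bases before the RefSeq gene start (Sscrofa11.1, read 5′ to 3′ on the gene's strand, with the motif in capitals). The TCF/LEF motif was searched as CTTTGAT and the STAT motif as TTCNNNGAA, on both strands. AXIN2 lies on the minus strand (chr12:12343208-12343457), LEF1 on the plus strand (chr8:113824261-113824510), NKD1 on the minus strand (chr6:34319585-34319834) and SOCS3 on the plus strand (chr12:3643582-3643831).
AXIN2: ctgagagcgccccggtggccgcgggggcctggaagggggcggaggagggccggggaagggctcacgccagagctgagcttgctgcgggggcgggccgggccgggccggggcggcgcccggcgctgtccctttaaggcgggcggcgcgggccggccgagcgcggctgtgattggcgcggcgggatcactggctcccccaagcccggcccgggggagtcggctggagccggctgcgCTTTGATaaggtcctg
LEF1: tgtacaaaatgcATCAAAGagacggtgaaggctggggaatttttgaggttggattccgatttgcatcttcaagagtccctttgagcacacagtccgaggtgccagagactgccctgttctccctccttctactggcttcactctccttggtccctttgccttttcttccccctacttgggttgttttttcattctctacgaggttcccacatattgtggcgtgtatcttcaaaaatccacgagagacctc
NKD1: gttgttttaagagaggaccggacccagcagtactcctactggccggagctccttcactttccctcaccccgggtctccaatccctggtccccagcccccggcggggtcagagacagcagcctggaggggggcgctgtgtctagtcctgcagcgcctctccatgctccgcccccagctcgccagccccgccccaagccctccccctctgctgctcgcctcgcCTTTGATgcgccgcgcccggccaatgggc
SOCS3: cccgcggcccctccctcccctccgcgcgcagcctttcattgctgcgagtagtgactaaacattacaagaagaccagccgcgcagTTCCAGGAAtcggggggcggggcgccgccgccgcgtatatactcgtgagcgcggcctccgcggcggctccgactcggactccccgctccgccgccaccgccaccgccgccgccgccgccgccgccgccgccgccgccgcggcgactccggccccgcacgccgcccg

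In AXIN2 and NKD1 the motif starts 16 and 29 bases before the gene start, in LEF1 238 bases before it and on the opposite strand, and in SOCS3 the STAT motif starts 166 bases before the start. Windows from 250 bases before to 50 after the start held CTTTGAT in 5 of the 15 called WNT target genes (33.3%; AXIN2, LEF1, NKD1, TCF7 and CCND1, all lower in FL6i) and in 472 of 19534 protein-coding genes of RefSeq (2.42%). WNT targets are in part known through such motifs, and a match is no evidence of binding in these cells. Windows could be read for 13 called LIF pathway genes, not for all of them. They held the STAT motif in 1 (7.69%), against 7.11% of all windows. The SMAD motif GGCGCC was in 3 of the 15 called BMP target windows, against 19.8% of all.

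Of 30 tested WNT ligands, receptors and effectors, 16 fell (14-sample count 5), 8 rose (14-sample count 5) and 6 were not called. WNT8A, a ligand of early mesoderm, had the lowest log2 difference of any gene with a symbol, at 6371 and 5797 in FLB2i and 0 and 4.99 in FL6i (-11.28 ± 0.69 SE, adjusted p = 1.2e-05). The ligands WNT3 (-4.36 ± 0.34 SE, adjusted p = 3.1e-05), WNT3A (-2.40 ± 0.37 SE, adjusted p = 0.00084) and WNT10B (-3.21 ± 0.42 SE, adjusted p = 0.00038) fell with it, and WNT16 rose, at 0 and 1.84 in FLB2i and 101 and 131 in FL6i. Effectors split, with TCF7L2 higher, at 189 and 90.4 in FLB2i and 718 and 1058 in FL6i (2.73 ± 0.34 SE, adjusted p = 0.00027), where LEF1 and TCF7 were lower. GSK3A rose by 0.71 on the log2 scale, and the co-receptor LRP6 was not called (1559 and 1464 in FLB2i and 1414 and 1542 in FL6i, log2 difference -0.03). With all 14 samples in 1 fit, the calls of TCF7 and WNT3A were lost.

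LIF was in both media. Of 19 tested genes of the LIF, JAK and STAT3 pathway, 12 fell (14-sample count 9), 2 rose (1 without FLB2i replicate 2 or without either FL6i replicate, 14-sample count 0) and 5 were not called, with a median of -0.77. SOCS3, the feedback inhibitor that STAT3 induces, was at 1221 and 1291 in FLB2i and 303 and 294 in FL6i (-2.07 ± 0.12 SE, adjusted p = 8.8e-06). The receptor subunit IL6ST was at 5882 and 6723 in FLB2i and 2315 and 2083 in FL6i (-1.52 ± 0.10 SE, adjusted p = 1.8e-05), and the STAT3-induced kinases PIM1 and PIM3 had log2 differences of -1.94 and -3.18. JAK2 was lower (-1.11 ± 0.14 SE, adjusted p = 0.00029), and OSMR, the receptor of oncostatin M, higher (1.76 ± 0.30 SE, adjusted p = 0.0015).

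FGF2 was also shared. Of 14 tested FGF ligands and receptors, 6 fell (14-sample count 3), 4 rose and 4 were not called. Over all genes tested, 30.6% fell and 30.4% rose. The receptor FGFR1 was at 8889.9 and 8261 in FLB2i and 3900.4 and 3868 in FL6i (-1.14 ± 0.09 SE, adjusted p = 3e-05), and the cells' own FGF2 transcript at 792 and 576 in FLB2i and 93.6 and 99.9 in FL6i (-2.79 ± 0.20 SE, adjusted p = 2.3e-05). FGFR2 and FGFR4 rose, by 1.02 and 3.19 on the log2 scale, so the receptors moved in opposite directions. FGF10, a ligand of FGFR2, fell from 194 and 169 in FLB2i to 6.76 and 10.99 in FL6i.

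Of 19 tested Notch genes, 11 were lower (5 without FL6i replicate 2, 6 without FL6i replicate 1, 7 without FLB2i replicate 2, 14-sample count 4), 2 higher and 6 not called. DLL3, an inhibitory ligand, was at 172 and 195 in FLB2i and 9.65 and 5.99 in FL6i (-4.41 ± 0.36 SE, adjusted p = 3.8e-05). HEY2, a Notch target, was higher (3.71 ± 0.63 SE, adjusted p = 0.0014), NOTCH2 was lower (-1.23 ± 0.10 SE, adjusted p = 4e-05), and the target HES1 was not called (293 and 439 in FLB2i and 359 and 393 in FL6i, log2 difference 0.07). The calls of OSMR, FGF10 and DLL3 were not made in the fit of all 14 samples.

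**Figure D3:**
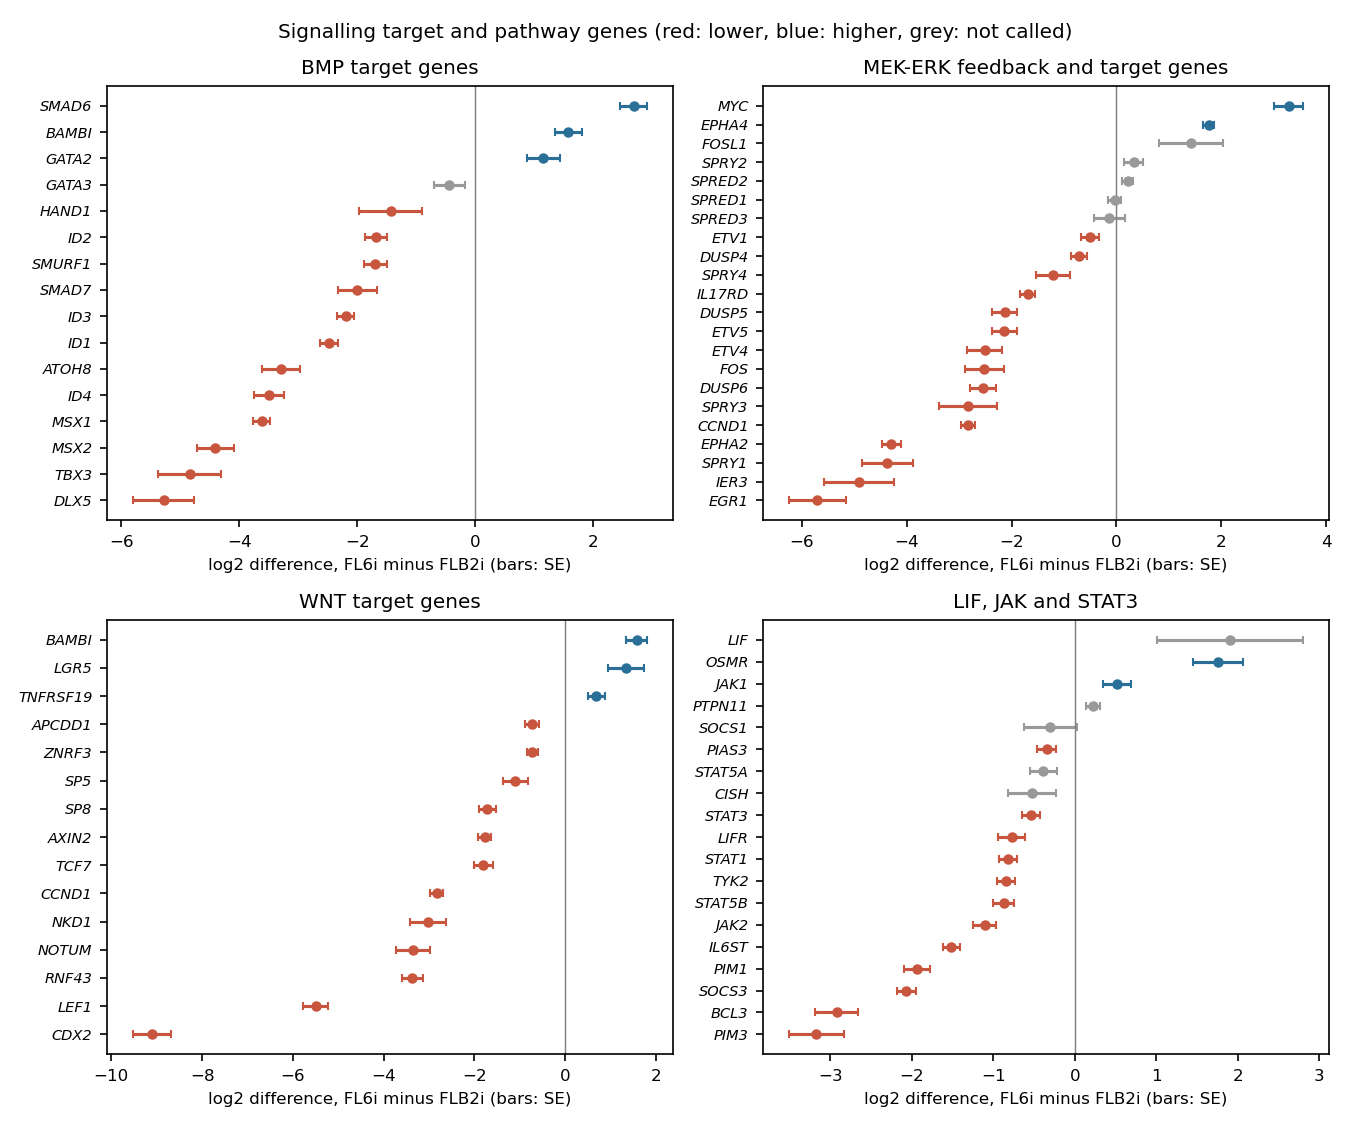
Log2 differences (FL6i minus FLB2i; bars are SE from limma) of the tested members of 4 signalling lists, 1 gene per line. Red points are genes called lower, blue points genes called higher and grey points genes not called; red points outnumber blue ones in each panel.

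Both media held a TGFB receptor inhibitor, A83-01 in FLB2i and SB431542 in FL6i. Of 12 tested TGFB target genes, 7 fell (14-sample count 3), 3 rose and 2 were not called, with a median of -1.23. CCN2, a matricellular growth factor, was at 3036 and 1768 in FLB2i and 263 and 262 in FL6i (-3.14 ± 0.22 SE, adjusted p = 2.1e-05), and TAGLN, an actin-binding protein of smooth muscle, at 7662 and 4432 in FLB2i and 352 and 386 in FL6i (-3.98 ± 0.22 SE, adjusted p = 7.8e-06). PMEPA1, an inhibitor of the pathway, was higher, at 27.9 and 6.46 in FLB2i and 125 and 134 in FL6i (3.15 ± 0.59 SE, adjusted p = 0.0022). CCN2 and TAGLN differed between the passages of B5 by more than between C10 and C11, yet the groups stayed apart, as for every called gene.

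Of 12 tested ligands, receptors and SMADs of that pathway, 5 rose (3 without FLB2i replicate 1 or without FL6i replicate 2, 14-sample count 2), 3 fell and 4 were not called. Over all genes tested, 30.4% rose and 30.6% fell. NODAL, which signals through activin receptors in the epiblast, rose from 1.03 and 6.46 in FLB2i to 350.5 and 604 in FL6i (6.89 ± 0.61 SE, adjusted p = 5e-05). TGFB1 and TGFB2 moved in opposite directions, TGFB1 at 332 and 285 in FLB2i and 26.1 and 6.99 in FL6i and TGFB2 at 149 and 76.5 in FLB2i and 1198 and 1666 in FL6i. SMAD3 (1187 and 1091 in FLB2i and 1236 and 1443 in FL6i, log2 difference 0.23) was not called.

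Of 8 tested core pluripotency genes, 3 rose (14-sample count 1), 2 fell (1 with DESeq2 on the recovered reads) and 3 were not called. Over all genes tested, 30.4% rose and 30.6% fell. A filter of 50 normalized counts left 5 of the 8 to test and removed the 2 that fell. LIN28A, an RNA-binding protein, was at 2209.5 and 1940.2 in FLB2i and 10048 and 11449.5 in FL6i (2.37 ± 0.11 SE, adjusted p = 3.3e-06), and ZSCAN10 rose from 16.6 and 3.69 to 915 and 1112 (6.80 ± 0.55 SE, adjusted p = 3.4e-05). NANOG fell from 25.9 and 36.9 to about 1 read in each FL6i sample (-4.01 ± 0.48 SE, adjusted p = 0.00023). By qPCR on lines of both media at later passages, the paper reports the opposite direction, with more NANOG transcript in FL6i. LIN28B (2241 and 2053 in FLB2i and 2377 and 2262 in FL6i, log2 difference 0.11) and TRIM71 (748 and 450.0 in FLB2i and 648 and 889 in FL6i, log2 difference 0.39) were not called.

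Of 8 naive-associated genes, 5 rose (14-sample count 3), 2 fell (1 without FL6i replicate 1, 14-sample count 1) and 1 was not called, with a median log2 difference of 2.22. ESRRB, a nuclear receptor of the naive network, was at 3.10 and 10.1 in FLB2i and 2819 and 3413 in FL6i (8.84 ± 0.43 SE, adjusted p = 4e-06). TFAP2C was at 189 and 251 in FLB2i and 1088 and 1608 in FL6i (2.60 ± 0.21 SE, adjusted p = 3.8e-05), ALPL, the gene of the alkaline phosphatase used to stain colonies, at 1173 and 1298 in FLB2i and 4594 and 4239 in FL6i (1.84 ± 0.10 SE, adjusted p = 6.4e-06), and KLF2, with no read in FLB2i, was at least 5.6-fold higher in FL6i. TBX3 was lower, at 36.2 and 85.8 in FLB2i and 0.97 and 1.00 in FL6i (-4.84 ± 0.54 SE, adjusted p = 0.00016), and KLF5 was not called (85.9 and 33.2 in FLB2i and 64.7 and 64.9 in FL6i, log2 difference 0.27).

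Of 11 primed-associated genes, 5 rose (14-sample count 3), 4 fell and 2 were not called, with a median of 0.16, where 30.4% of all genes tested rose and 30.6% fell. DNMT3B, a de novo DNA methyltransferase, was at 812 and 868 in FLB2i and 15249 and 18038 in FL6i (4.30 ± 0.11 SE, adjusted p = 7.8e-07). OTX2 was at 85.9 and 17.5 in FLB2i and 1867 and 2283 in FL6i (5.69 ± 0.59 SE, adjusted p = 0.00011) and POU3F1 at 2.07 and 11.07 in FLB2i and 322 and 366 in FL6i (5.82 ± 0.59 SE, adjusted p = 0.0001). ZIC2 was at 6406 and 5933 in FLB2i and 10.6 and 19.98 in FL6i (-8.63 ± 0.27 SE, adjusted p = 9.5e-07), and SALL2 fell by 1.25 on the log2 scale. Of 9 DNA methylation genes, 4 rose (2 without either FL6i replicate, 14-sample count 1), 1 fell (0 in the same 3 fits) and 4 were not called, and besides DNMT3B no member differed by more than 0.72 (TET3) on the log2 scale, with DNMT3A (1075 and 1202 in FLB2i and 1067 and 1194 in FL6i, log2 difference -0.01) and UHRF1 (5748 and 6006 in FLB2i and 5875 and 6312 in FL6i, log2 difference 0.05) not called.

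Of the genes carried by the plasmids, KLF4 rose like LIN28A, at 181 and 115 in FLB2i and 1182 and 1641 in FL6i (3.26 ± 0.24 SE, adjusted p = 2.4e-05). Whether reads of human plasmid sequence were counted on pig KLF4 and LIN28A was not tested. With all 14 samples in 1 fit, the calls of LIN28A, ALPL, TET3 and KLF4 were lost.

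Across the 7 groups of the series, ZIC2 was between 2088 and 8424 normalized counts in the 12 samples outside Epi-piPSC-FL6i. NANOG was between 178 and 847 in the 6 samples grown in F medium, above all 4 episomal samples. CDH1 and OTX2 were at 16.8 to 125 and 0 to 2.62 in the 4 embryo-derived (pESCLC) samples grown with inhibitors, and at 6937 to 9419 and 1867 to 2283 in Epi-piPSC-FL6i. These are levels from 1 normalization over all 14 samples, given without a test.

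**Figure D4:**
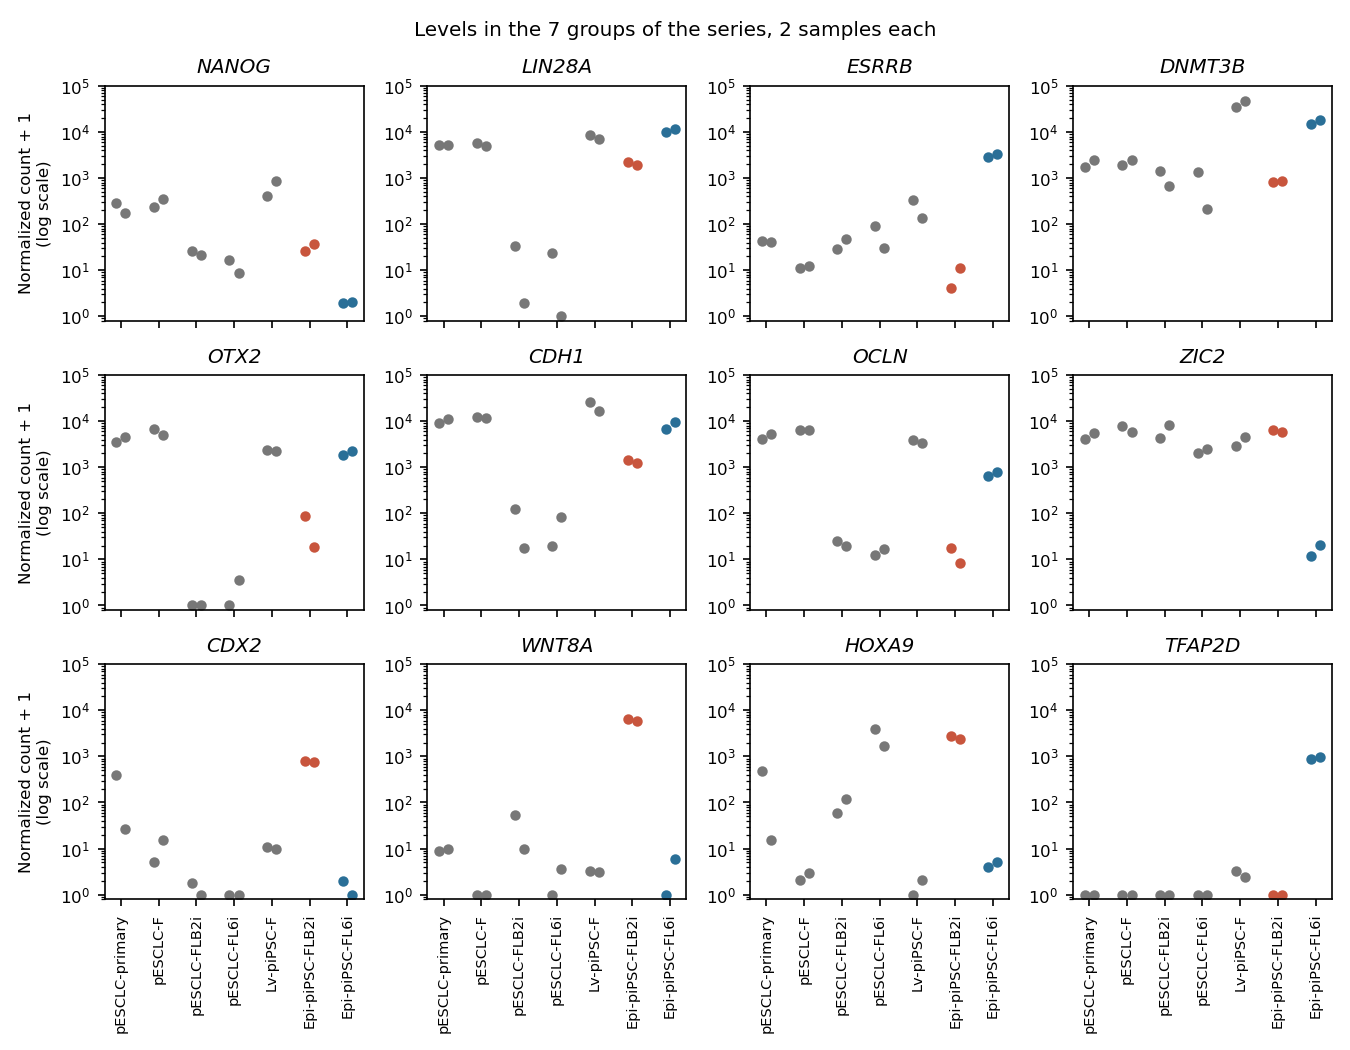
Normalized count + 1 (log axis) of selected genes in the 7 groups of the series, with each of the 2 samples per group as a point. ZIC2 is at its lowest in Epi-piPSC-FL6i (10.6 and 19.98), and NANOG is lowest there.

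Of 18 tested epithelial markers, 12 rose (14-sample count 7), 4 fell (14-sample count 2) and 2 were not called, with a median log2 difference of 1.90. CDH1, the adherens junction cadherin, was at 1452 and 1231 in FLB2i and 6937 and 9419 in FL6i (2.60 ± 0.15 SE, adjusted p = 9.3e-06). ESRP1, which directs epithelial splicing, was at 26.9 and 17.5 in FLB2i and 1124 and 1701 in FL6i (5.93 ± 0.29 SE, adjusted p = 4.2e-06), and the tight junction gene OCLN at 16.6 and 7.38 in FLB2i and 641 and 799 in FL6i (5.89 ± 0.38 SE, adjusted p = 1.4e-05). EPCAM rose as well, at 111 and 106 in FLB2i and 879.5 and 1196 in FL6i. Claudins split, with CLDN3 higher (1.96 ± 0.25 SE, adjusted p = 0.00033) and CLDN4 lower, at 284 and 195 in FLB2i and 5.79 and 5.99 in FL6i (-5.10 ± 0.35 SE, adjusted p = 1.8e-05). The keratins KRT8 (9447 and 5402 in FLB2i and 4776 and 8472 in FL6i, log2 difference -0.17) and KRT18 (2427 and 1171 in FLB2i and 1038 and 1019 in FL6i, log2 difference -0.71) were not called, and the summed level of the list was 17424 and 11451 in FLB2i and 23821 and 33666 in FL6i.

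Of 22 tested fibroblast markers, 13 fell (14-sample count 6), 6 rose (14-sample count 0) and 3 were not called, with a median of -0.61. PDGFRA and PDGFRB, receptors of platelet-derived growth factor, were at 941 and 1056 in FLB2i and 44.4 and 48.9 in FL6i and at 959 and 802 in FLB2i and 42.5 and 40.0 in FL6i. Their log2 differences were -4.39 ± 0.19 SE, adjusted p = 2.7e-06 and -4.38 ± 0.20 SE, adjusted p = 3.4e-06. COL6A1 fell (-3.85 ± 0.21 SE, adjusted p = 7.2e-06), as did ZEB1, a repressor of CDH1 (-2.54 ± 0.23 SE, adjusted p = 5.7e-05). Others went the other way at lower read numbers. The matrix proteoglycan LUM was at 17.6 and 6.46 in FLB2i and 144 and 204 in FL6i (3.87 ± 0.48 SE, adjusted p = 0.00026), DCN, of the same family, at 10.3 and 0.92 in FLB2i and 50.2 and 74.9 in FL6i (3.74 ± 0.77 SE, adjusted p = 0.0037), and the matrix protein POSTN at 15.5 and 5.53 in FLB2i and 90.8 and 134 in FL6i (3.42 ± 0.50 SE, adjusted p = 0.00063), all called higher, as were S100A4 and FBN1, with log2 differences of 2.03 and 0.89, and TWIST2. The call of DCN was lost without FL6i replicate 2, and that of TWIST2 without it and without either FLB2i replicate. COL1A1 (7216 and 6030.0 in FLB2i and 5575 and 7468 in FL6i, log2 difference -0.03) and FN1 (13856 and 11696 in FLB2i and 16084 and 15159 in FL6i, log2 difference 0.29) were not called, and none of the 22 was at 0 in any of the 4 samples. The summed level of the list was 83069 and 71669 in FLB2i and 50053 and 51969 in FL6i, and whether reads of the mouse feeder cells or of fibroblast-like cells enter any of the results was not tested. CDH2, the cadherin that marks mesenchyme and primed cells, was not called (5072 and 5578 in FLB2i and 6200.1 and 5675 in FL6i, log2 difference 0.16).

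All 11 tested ectoderm markers were called, 9 lower (14-sample count 5) and 2 higher (1 without FLB2i replicate 1 or without FL6i replicate 1, 14-sample count 1), with a median log2 difference of -2.27. PAX3, a factor of the dorsal neural tube and neural crest, was at 806 and 765 in FLB2i and 0.97 and 3.996 in FL6i (-7.97 ± 0.46 SE, adjusted p = 8.8e-06). NES, an intermediate filament of neural progenitors, was at 12724 and 13142 in FLB2i and 2412 and 1565 in FL6i (-2.73 ± 0.18 SE, adjusted p = 1.5e-05), and DCX at 243 and 303 in FLB2i and 20.3 and 12.99 in FL6i. TUBB3 rose, at 8088 and 9589 in FLB2i and 15496 and 17179 in FL6i (0.89 ± 0.12 SE, adjusted p = 0.00036). PAX6, of the neural tube and eye, was called higher as well (4.33 ± 0.92 SE, adjusted p = 0.0041), a call lost without FLB2i replicate 1 and without FL6i replicate 1. Of 7 mesoderm markers, 6 fell (14-sample count 3) and 1 was not called. DES, the intermediate filament of muscle, was at 5985 and 5645 in FLB2i and 20.3 and 8.99 in FL6i (-8.64 ± 0.32 SE, adjusted p = 1.6e-06), and TBX6, of paraxial mesoderm, fell by 1.63 on the log2 scale.

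Endoderm and trophectoderm markers gave mixed counts. GATA6, a marker of both endoderm lists and the highest in each, rose from 10.3 and 34.1 to 433 and 624 (4.70 ± 0.50 SE, adjusted p = 0.00012). Of 4 definitive endoderm markers, 1 rose, 1 fell and 2 were not called, with a lowest log2 difference of -6.04. The lowest of the primitive endoderm list was -4.39 (PDGFRA). Of 6 primitive endoderm markers, 2 rose (1 without either FL6i replicate, 14-sample count 1) and 3 fell (14-sample count 1). Of 11 trophectoderm markers, 3 rose (14-sample count 1), 4 fell and 4 were not called, where 30.4% of all genes tested rose and 30.6% fell. Those that fell included CDX2, at 785 and 757 in FLB2i and 0.97 and 0 in FL6i (-9.11 ± 0.42 SE, adjusted p = 3.5e-06), and TFAP2A (-3.81 ± 0.27 SE, adjusted p = 1.9e-05). Of 4 germ cell markers, KIT rose (1.93 ± 0.12 SE, adjusted p = 1.4e-05), SYCP2 fell (-3.37 ± 0.37 SE, adjusted p = 0.00014), PRDM1 was not called, and PIWIL2, with no read in FL6i against 169.7 and 108, was at least 36-fold lower. The calls of TUBB3 and TBX6 were not made in the fit of all 14 samples.

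Of 21 glycolysis genes, 11 fell (7 without FL6i replicate 2, 14-sample count 5), 2 rose (1 without either FL6i replicate, 14-sample count 1) and 8 were not called, with a median of -0.49. ENO2 was at 10454 and 8304 in FLB2i and 1287 and 815 in FL6i (-3.18 ± 0.20 SE, adjusted p = 1.4e-05), the glucose-trapping enzyme HK2 at 9212 and 8957 in FLB2i and 4649 and 3779.9 in FL6i (-1.12 ± 0.11 SE, adjusted p = 0.00011), PFKP, a phosphofructokinase, was higher (1.25 ± 0.17 SE, adjusted p = 0.00049), and PKM, of the last step, was not called (71424 and 67275 in FLB2i and 68879 and 65766 in FL6i, log2 difference -0.04). Of 21 genes of cholesterol synthesis and uptake, 13 fell (8 without FL6i replicate 1 or without FL6i replicate 2, 14-sample count 6), 4 rose (2 without FLB2i replicate 1 or without either FL6i replicate, 14-sample count 2) and 4 were not called. SREBF2, the transcription factor that induces the pathway, was at 12903 and 11325 in FLB2i and 6239.7 and 5578 in FL6i (-1.03 ± 0.11 SE, adjusted p = 0.00011), and DHCR7, a late enzyme of cholesterol synthesis, rose (0.78 ± 0.12 SE, adjusted p = 0.001).

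Of 13 mitochondrially encoded protein genes, 2 rose, 2 fell and 9 were not called, and the counts went to 5 lower without FLB2i replicate 1 and to 6 higher without FLB2i replicate 2, and to 0 lower without either FL6i replicate and with all 14 samples in 1 fit. Of the 2 higher, 1 was called without FLB2i replicate 1, without FL6i replicate 2 and in the fit of all 14 samples. CYTB was at 30693 and 44734 in FLB2i and 83401 and 90420.2 in FL6i (1.23 ± 0.19 SE, adjusted p = 0.00086). Of 17 tested genes of the unfolded protein and integrated stress responses, 7 rose (14-sample count 3), 6 fell and 4 were not called. Over all genes tested, 30.4% rose and 30.6% fell. The chaperones HSPA5 (-1.05 ± 0.14 SE, adjusted p = 0.00047) and HSP90B1 (-0.89 ± 0.11 SE, adjusted p = 0.00025) fell, with HSPA5 at 16814 and 12437 in FLB2i and 6739 and 7279 in FL6i. The amino acid genes PSAT1 (1.87 ± 0.28 SE, adjusted p = 0.00069) and SLC7A11, at 22.8 and 23.1 in FLB2i and 356 and 352 in FL6i (3.89 ± 0.25 SE, adjusted p = 1.4e-05), rose. The co-chaperone DNAJB9 was called higher (0.68 ± 0.17 SE, adjusted p = 0.0086), a call lost without either FL6i replicate and in the fit of all 14 samples, and CHAC1, an enzyme that degrades glutathione, had the lowest log2 difference of the list and was not called (238 and 47.0 in FLB2i and 71.4 and 3.00 in FL6i, log2 difference -2.65), though it was with the replicate block and without FL6i replicate 1. With all 14 samples in 1 fit, the calls of HK2 and HSPA5 were lost.

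Of 22 cell cycle genes, 13 fell (8 without FL6i replicate 2, 14-sample count 5), 6 rose (14-sample count 1) and 3 were not called. The D-type cyclins, which drive exit from G1, were lower for CCND1, at 1892 and 1643 in FLB2i and 231 and 264 in FL6i (-2.83 ± 0.13 SE, adjusted p = 3.7e-06), and for CCND2 (-2.50 ± 0.29 SE, adjusted p = 0.00018), and not called for CCND3 (326 and 338 in FLB2i and 386 and 383 in FL6i, log2 difference 0.21). Of their partners, CDK6 fell, at 504 and 409 in FLB2i and 29.0 and 17.0 in FL6i (-4.29 ± 0.32 SE, adjusted p = 2.3e-05), and CDK4 rose, at 2092 and 2391 in FLB2i and 4165 and 4217 in FL6i (0.91 ± 0.10 SE, adjusted p = 0.00014). CDKN2A, which encodes inhibitors of those kinases and of MDM2, rose from 0 and 0.92 to 128 and 74.9 (6.16 ± 0.53 SE, adjusted p = 4.6e-05).

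Of 14 imprinted genes, 6 rose (3 without FL6i replicate 1 or without FL6i replicate 2, 14-sample count 1), 6 fell (14-sample count 2) and 2 were not called. Over all genes tested, 30.4% rose and 30.6% fell. MEST was at 4383 and 4987 in FLB2i and 348 and 451 in FL6i (-3.56 ± 0.14 SE, adjusted p = 2.2e-06), and GRB10 at 630.3 and 586 in FLB2i and 1816 and 1682 in FL6i (1.52 ± 0.11 SE, adjusted p = 2e-05). The Y-linked KDM5D was at 1.03 and 0 in FLB2i and 242 and 181 in FL6i and EIF1AY at 12.4 and 5.53 in FLB2i and 577 and 548 in FL6i. Both FL6i lines were above both passages of the FLB2i line for these genes, as for every gene called higher. Over the 8793 genes placed on a chromosome by symbol with a mean of at least 100 normalized counts, the median log2 difference of a chromosome ran from -0.196 (X, 301 genes) to 0.268 (16, 169 genes), where that over all of them was 0.0394. The call of CDK4 was not made in the fit of all 14 samples.

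The 15 highest and 15 lowest genes were picked among called genes with a symbol and groups that did not overlap. Their higher group had a mean of at least 100 normalized counts. The log2 differences of the 15 highest ran from 10.77 (HSD17B2) to 7.496 (C1QA). HSD17B2, an enzyme that oxidises estradiol and testosterone, was at 0 and 0.92 in FLB2i and 2155 and 2727 in FL6i (10.77 ± 0.39 SE, adjusted p = 1.5e-06). The transcription factor genes HELT, TFAP2D and GFI1 had no read in either FLB2i sample and were higher in FL6i, HELT (at 1104 and 1228) at least 355-fold, TFAP2D (at 894 and 952) at least 288-fold and GFI1 at least 63.1-fold. C1QL2, a secreted C1q-like protein, rose from 1.03 and 7.38 to 3410.0 and 4140.5, and C1QA, a complement subunit, from 2.07 and 0.92 to 396 and 483.

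LCP1, which encodes an actin-bundling protein of blood cells, was at 9.31 and 14.8 in FLB2i and 3613 and 4813 in FL6i (8.35 ± 0.26 SE, adjusted p = 9.5e-07). The other genes of the 15 besides ESRRB were DPP10, the GABA receptor subunit GABRA5, TMEM132E, the calcium pump ATP2A3, RASGRF2, HS3ST5 and the cytokine IL16, with log2 differences from 7.65 to 9.17. TMEM132E differed by over 3 log2 units between the passages of B5 (0 and 7.38), as wide a gap as a DEG shows. That the FL6i samples lay above the FLB2i samples in all 15 genes was set by the rule that picked them.

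The 15 lowest genes ran from -11.28 (WNT8A) to -8.63 (ZIC2) and held 6 HOX genes besides WNT8A, CDX2, DES and ZIC2. The others were SH3RF2, the ATP-gated channel P2RX3, the adaptor SKAP1 and the receptor tyrosine kinase RET. P2RX3 was at 1021 and 871 in FLB2i and 0.97 and 1.00 in FL6i (-8.90 ± 0.32 SE, adjusted p = 1.6e-06), and RET at 2345 and 2561 in FLB2i and 0.97 and 18.0 in FL6i (-8.65 ± 0.86 SE, adjusted p = 9e-05). RET differed by over 3 log2 units between C10 and C11, near the floor of 3 reads, while both FL6i values stayed far below FLB2i.

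Read numbers also differed for very abundant transcripts, where a read number grows with transcript length and so does not rank genes. ACTG1, cytoplasmic gamma actin, was at 172034 and 129307 in FLB2i and 53871 and 51577 in FL6i (-1.50 ± 0.18 SE, adjusted p = 0.00023), and TUBA1B, an alpha tubulin, at 74945 and 79672 in FLB2i and 97511 and 101573 in FL6i, which was not called. The glycolytic enzymes GAPDH and ENO1 and mitochondrial COX1 had log2 differences of -0.80, -1.21 and -1.15 and were called lower. These calls were lost without FL6i replicate 2 for all 3 genes, without FL6i replicate 1 for GAPDH and COX1, and in the fit of all 14 samples for all 3. COX2 (88484 and 129345 in FLB2i and 105519 and 116198 in FL6i, log2 difference 0.05), COX3 (117313 and 192992 in FLB2i and 129176 and 133420.0 in FL6i, log2 difference -0.20) and ATP6 (78537 and 127019 in FLB2i and 116953 and 125545 in FL6i, log2 difference 0.28) were not called.

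The same pair of media was also compared in embryo-derived lines (pESCLC, 2 samples of 1 line in each medium), which carry no plasmids and share no samples with the episomal groups. Line B1 in FLB2i was at passages 3 and 6, and line C2 in FL6i at passages 3 and 9. The C2 sample at passage 9 had 6193659 reads on genes, against 15179200 to 21232806 in the other pESCLC samples compared here. By the paper's account, the pESCLC-FLB2i cells came from colonies that had first been moved to FL6i. In pESCLC, limma called 0 of 14495 genes (0%), with 664 at an unadjusted p under 0.05, while edgeR called 0 and DESeq2 164. The median SE of a log2 difference was 0.51 in pESCLC and 0.17 in Epi-piPSC, and the 2 passages of a pESCLC line differed by a median of 0.42 in FLB2i and 0.70 in FL6i. A lack of calls there is therefore no sign that the media had no effect.

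By the interaction term over the 8 samples, the medium difference was called as unequal between Epi-piPSC and pESCLC for 487 of 15248 genes (3.19%), 310 with a lower (2.03%) and 177 with a higher (1.16%) difference in Epi-piPSC. HOX genes made up 20 of the 310, out of 26 tested. In pESCLC the HOX genes had a median log2 difference of 0.93 and 17 of 26 were above 0. HOXA9 was at 3885 and 1656 in FL6i pESCLC against 57.7 and 115 in FLB2i pESCLC, so FL6i was higher there and lower in Epi-piPSC, an interaction of -14.12 ± 0.72 SE, adjusted p = 0.0031. HOXA10 was at 358 and 286 in FL6i pESCLC against 0 and 1.97 in FLB2i pESCLC (-13.10 ± 1.19 SE, adjusted p = 0.0096), HOXA5 at 8053 and 3746 in FL6i pESCLC against 499 and 923 in FLB2i pESCLC (-12.55 ± 0.68 SE, adjusted p = 0.0031), and HOXB8 at 2144 and 4315 in FL6i pESCLC against 674 and 920.3 in FLB2i pESCLC (-10.93 ± 1.13 SE, adjusted p = 0.012).

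HSD17B2, with 0 and 0 in FL6i pESCLC against 0 and 7.88 in FLB2i pESCLC, gave the highest positive interaction of the genes named, 12.35 ± 1.46 SE, adjusted p = 0.015. ESRP1 and OCLN, higher in Epi-piPSC-FL6i, were at 10.5 and 15.7 in FL6i pESCLC against 23.1 and 13.8 in FLB2i pESCLC and at 11.5 and 15.7 in FL6i pESCLC against 24.6 and 18.7 in FLB2i pESCLC, with interactions of 6.37 ± 0.70 SE, adjusted p = 0.013 and 6.52 ± 0.73 SE, adjusted p = 0.013. PAX3, at a few reads in Epi-piPSC-FL6i, was at 764 and 301 in FL6i pESCLC against 548 and 258 in FLB2i pESCLC (-8.32 ± 0.93 SE, adjusted p = 0.013). DUSP6, the ERK phosphatase, was at 151 and 440.1 in FL6i pESCLC against 1483 and 1398 in FLB2i pESCLC, an interaction of -0.07 ± 0.73 SE, adjusted p = 0.96, which was not called. The interaction count fell to 0 without Epi-piPSC-FLB2i replicate 1 or replicate 2 and to 29 and 28 without Epi-piPSC-FL6i replicate 1 and replicate 2, and it rose to 4154 and 1254 without pESCLC-FL6i replicate 1 and replicate 2.

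**Figure D5:**
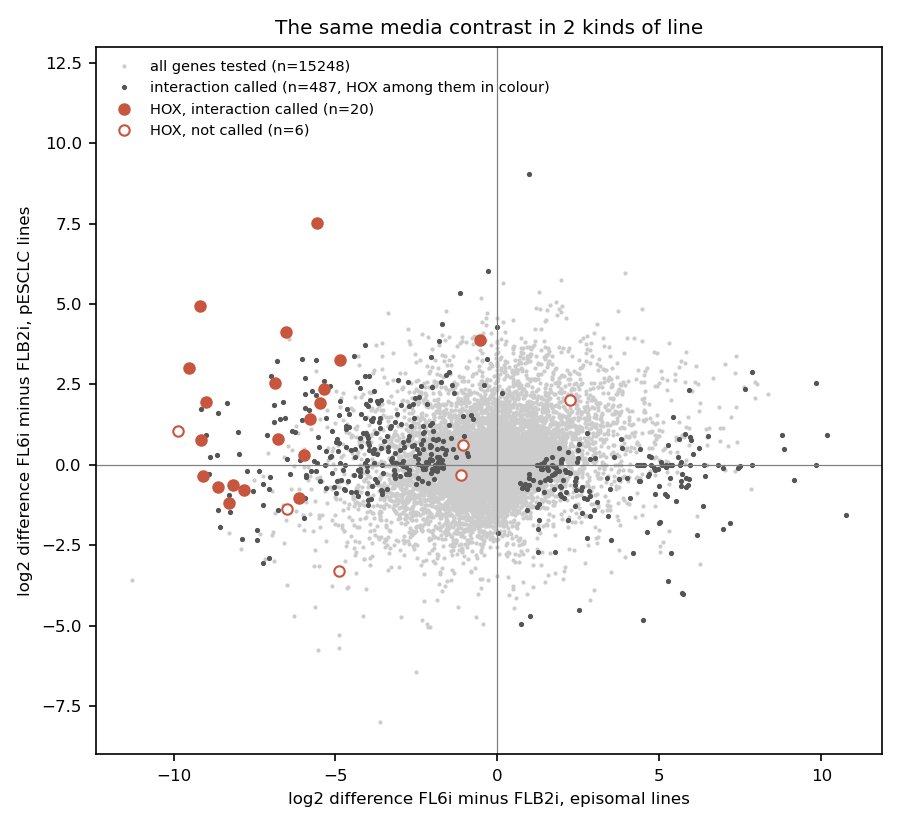
Log2 difference FL6i minus FLB2i in the episomal lines (horizontal axis) against that in the pESCLC lines (vertical axis), 1 point per gene. Dark points are the 487 genes with a called interaction and circles are the HOX genes, 20 of 26 filled as called; most HOX circles lie at the far left, with pESCLC values above 0 for 17 of 26.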

How the data were processed

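Polyadenylated RNA from 2 samples each of Epi-piPSC-FL6i and Epi-piPSC-FLB2i was analysed, with pESCLC samples in the same media for the interaction. The authors sequenced 50 bp paired ends of stranded libraries, aligned them to Sscrofa11.1 with TopHat 2.1.0, counted reads on genes with HTSeq at default settings and normalized with DESeq2. The deposited values are that signal, a normalized count per gene and sample, set over 14 samples without pooling. The annotation release and any other strand setting are not given in the sources used here. Whether reads of mouse feeder cells were counted was not tested.

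Every value was a whole multiple of the worth of 1 read in its sample (largest deviation 1.8e-09 reads), which gave the reads back. Because the deposited values are normalized, limma 3.58.1 (R 4.3.3; trend, Benjamini-Hochberg) on log2(normalized count + 1) was the main test, which understates differences of low genes, and edgeR 4.0.16 and DESeq2 1.42.0 on the recovered reads were alternatives. With 2 samples against 2, an exact permutation test cannot go below p = 0.333. Folds against groups without reads used a floor of 3 reads per sample and cover counting error only. The tests were tried on simulated reads. Other alternatives were pseudocounts of 0.1 and 5, 2 other filters, TMM factors, a fold of 3, 1 fit of all 14 samples, a replicate block and each sample left out.

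Symbols came from a table of gene identifiers. Of 624 symbols in 35 gene lists, 456 were tested, 80 fell under the filter and 88 were not matched and were not analysed here. Some genes are not reported here. Members and lists were chosen with earlier results of these data known. Genes named were members of the lists with the largest differences or defining roles, the 5 largest interactions and the 10 most abundant genes. Of the latter, 2 without a symbol are not named. The 15 highest and 15 lowest genes were also named, among called genes with a symbol and groups that did not overlap. Their higher group had a mean of at least 100 normalized counts. The other list members given with an interaction, and some that went against the direction of most of their list, were chosen after their values were seen. Promoter windows were read from the RefSeq genome and annotation of Sscrofa11.1, from 250 bases before to 50 after the gene start.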

Additional observations from a re-analysis of the deposited data

Results flagged for a closer look

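The FL6i minus FLB2i difference itself differed between the episomal and the embryo-derived lines for 487 of 15248 genes, by the interaction term in limma. The 5 genes with the largest interactions (Epi-piPSC minus pESCLC, log2 scale) were HOXA9 at -14.12, HOXA10 at -13.10, HOXA5 at -12.55, HSD17B2 at 12.35 and HOXB8 at -10.93. All 5 calls were lost without Epi-piPSC-FLB2i replicate 1 and without replicate 2, when the single remaining sample is assumed to vary like the others, and 1 of the 5 was lost without either Epi-piPSC-FL6i sample. In each of the 4 HOX genes both pESCLC-FL6i samples were above both pESCLC-FLB2i samples and both Epi-piPSC-FL6i samples were below both Epi-piPSC-FLB2i samples. Line and medium cannot be told apart in either pair of groups.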

How the results depend on the processing

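The 8697 called genes became 7793 to 8857 with other pseudocounts, filters, TMM factors, edgeR, DESeq2 or the replicate block, 5954 to 7545 with 1 sample left out, and 3979 with all 14 samples in 1 fit. The 1101 DEGs became 725 with a pseudocount of 5 and 2813 with a fold of 3 in place of a log2 difference of 3, and 1054 to 1178 with 1 sample left out. The 487 genes with a called interaction became 2083 with DESeq2 and 0 to 4154 with 1 sample left out. The interaction count was 0 without Epi-piPSC-FLB2i replicate 1 (2008 genes at an unadjusted p under 0.05) and without its replicate 2 (2239), 29 and 28 without Epi-piPSC-FL6i replicate 1 and 2, 4154 and 1254 without pESCLC-FL6i replicate 1 and 2, and 388 and 188 without pESCLC-FLB2i replicate 1 and 2. With edgeR it was 345. The cause was not tested.

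Replicate numbers did not pair the samples, since the replicate 1 minus 2 differences of both groups correlated at -0.06. With the replicate block, 8722 genes were called, 1101 were DEGs and 254 had a called interaction. Of 476 genes of the lists and rules, 271 kept their outcome, called or not called, under every alternative. Under the alternatives that left out no sample, 291 of the 476 kept it. In the main fit 367 of the 476 were called, and none of these changed direction under any alternative. No uncalled gene became called with the opposite sign, and other sign changes of uncalled genes were not counted. A sample left out cost between 36 and 72 of these calls, and 1 fit of all 14 samples cost 166. With 1 sample left in a group, that sample was assumed to vary like the others. At the depth of these samples, genes near the floor of 3 reads have the least certain differences.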
